A study of Mus musculus with 16 samples.

Results

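The genes described here are 9 enzymes and transporters that carry fructose, sorbitol and glucose toward triose phosphates and lactate in the mouse kidney: Slc2a5, Khk, Tkfc, Aldoc, Sord, Hk1, Hk2, Pkm and Ldha. They were taken by symbol from the 57186 rows of the gene count table, each symbol matched 1 row, and all 9 had at least 100 counts over the 16 libraries. The RNA came from whole kidneys of 16 male mice, sampled at 16 weeks of age and between ZT 7 and ZT 9, that is, in the later part of the light phase. Every mouse carried Elmo1H/H, which raises expression of Elmo1, a gene of engulfment and cell motility, so the controls are Elmo1 mice and not wild type. The non-diabetic mice were Ins2+/+ and the diabetic mice Ins2Akita/+, an insulin gene variant whose misfolded product leads to loss of beta cells and high blood glucose. The labels give 4 libraries to each of 4 groups, which are non-diabetic control (ND_C), non-diabetic given vitamin B12 (ND_B12), diabetic control (D_C) and diabetic given vitamin B12 (D_B12). B12 was given in the drinking water at 10 mg per kg body weight per day from 8 weeks of age, a course of 8 weeks in the study's methods and of 16 weeks in the labels. The design asks what diabetes does with and without B12, what B12 does with and without diabetes, and whether the effects interact.

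The polyol pathway turns glucose into sorbitol by aldose reductase and sorbitol into fructose by sorbitol dehydrogenase (Sord). Fructose, made inside the cell or taken up from the tubule lumen by the transporter GLUT5 (Slc2a5), is phosphorylated by ketohexokinase (Khk), split by aldolase into dihydroxyacetone phosphate and glyceraldehyde, and the glyceraldehyde is phosphorylated by triokinase (Tkfc). The proximal tubule is the main site of fructose metabolism in the kidney and makes glucose more than it burns it, whereas the distal nephron and collecting duct depend on glycolysis, in which hexokinases (Hk1, Hk2) phosphorylate glucose, pyruvate kinase (Pkm) makes pyruvate and lactate dehydrogenase A (Ldha) makes lactate.

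Depth and labels bear on every comparison. The libraries had total counts from 65271308 to 91771136. By correlation of log2 CPM (counts scaled to the TMM-adjusted total of the library) over all tested genes, 14 libraries had a nearest library with the same Ins2 genotype, whereas the library labelled D_C 1 was nearest to ND_C 4 and the library labelled ND_B12 4 was nearest to D_C 3. A printed table of group means that accompanies the study was also set against all 1820 sets of 4 libraries. The column headed ND_C there was matched by the libraries labelled ND_C 1, 2 and 4 with ND_B12 1, the column headed ND_B12 by ND_C 3, ND_B12 2 and 3 and D_C 1, the column headed D_C by the libraries labelled D_B12 1 to 4, and the column headed D_B12 by ND_B12 4 with D_C 2, 3 and 4. Only 5 of 16 libraries therefore sat under the heading of their own label. On the log2 scale the printed means lay a median of 0.000194 to 0.000271 from the matched sets. From the labelled sets they lay 0.0469 to 0.304. Groups and directions below are those of the labels throughout. For the 9 genes the values of every library are given, so that a different assignment can be read from them. Cell type markers and the other pathway genes are given mostly by labelled group. For those a different assignment cannot be read, and their directions rest on the labels. Under the headings of that table the libraries called D_C and D_B12 here would change places, except that D_C 1 would be replaced by ND_B12 4. The signs given below for B12 in diabetic kidneys would then turn for Aldoc, Hk1 and Pkm. ND_B12 4 with D_C 2, 3 and 4 held 12.7 to 26.1 CPM of Aldoc, 98.0 to 137 CPM of Hk1 and 168 to 260.0 CPM of Pkm. The 4 libraries labelled D_B12 held 8.67 to 13.6, 81.2 to 89.2 and 155 to 192 CPM. The comparisons of diabetes would change too. Untreated diabetes would set the libraries labelled D_B12 against ND_C 1, 2 and 4 with ND_B12 1. Those held 7.03 to 8.92 CPM of Aldoc, 80.6 to 100.1 of Hk1 and 130.3 to 168 of Pkm, so the groups would overlap for each gene. B12-treated diabetes would set ND_B12 4 with D_C 2, 3 and 4 against ND_C 3, ND_B12 2 and 3 and D_C 1. The latter 4 held 5.73 to 8.89 CPM of Aldoc, 76.4 to 104 of Hk1 and 149 to 162 of Pkm. There the groups would not overlap for Aldoc and Pkm, both higher in diabetes, and would overlap for Hk1. No test was run on these sets, and the share of all genes without overlap was not computed for them. Library names carry 10 dates over 111 days that run in the order of the groups. No date holds both a D_C and a ND_C library, a D_B12 and a ND_B12 library, or a D_B12 and a D_C library, so date and these 3 contrasts cannot be told apart. For B12 in non-diabetic kidneys 1 date holds both groups, with 1 library of each.

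The clearest pattern among the 9 genes lay between the libraries labelled D_C and ND_C. In D_C, Aldoc was 2.39-fold, Pkm 1.49-fold and Hk1 1.41-fold the ND_C level, and these 3 of 9 genes passed an adjusted p-value of 0.05 in edgeR's quasi-likelihood test, all higher, where 1.66% of all 25408 tested genes passed and 0.937% passed as higher. Between D_B12 and ND_B12 0 of 9 passed by edgeR, where 0.823% of all genes did, and 1 of 9, Hk1, had an unadjusted p-value below 0.05, where 17.0% of all genes did. Averaged over treatments, diabetic libraries had 1 of 9 genes past the threshold, Aldoc, higher, where 3.02% of all genes passed, and 5 of 9 below an unadjusted p-value of 0.05, where 19.4% of all genes were. For B12, edgeR called 0 of 9 genes and 0% of all genes in non-diabetic kidneys, in diabetic kidneys, in the interaction and in the average over genotypes. At an unadjusted p-value below 0.05 these 4 comparisons held 1, 3, 3 and 0 of the 9 genes, where 7.62%, 13.6%, 16.1% and 5.2% of all genes lay below it. DESeq2 called the same 3 genes from ND_C to D_C (6.31% of all genes), 0 of 9 from ND_B12 to D_B12 (4.51%) and 3 of 9, Aldoc, Pkm and Tkfc, averaged over treatments (7.21%). For B12 it called 1 of 9, Hk1, in diabetic kidneys (2.68%) and in the interaction (3.63%), and 0 of 9 in non-diabetic kidneys and averaged over genotypes (0.0236% in each). The median log2 fold change of the 9 genes from ND_C to D_C was 0.33 with 8 of 9 positive, beside -0.00 over all tested genes. From ND_B12 to D_B12 it was 0.13 with 6 of 9 positive, beside 0.00.

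**Figure D1:**
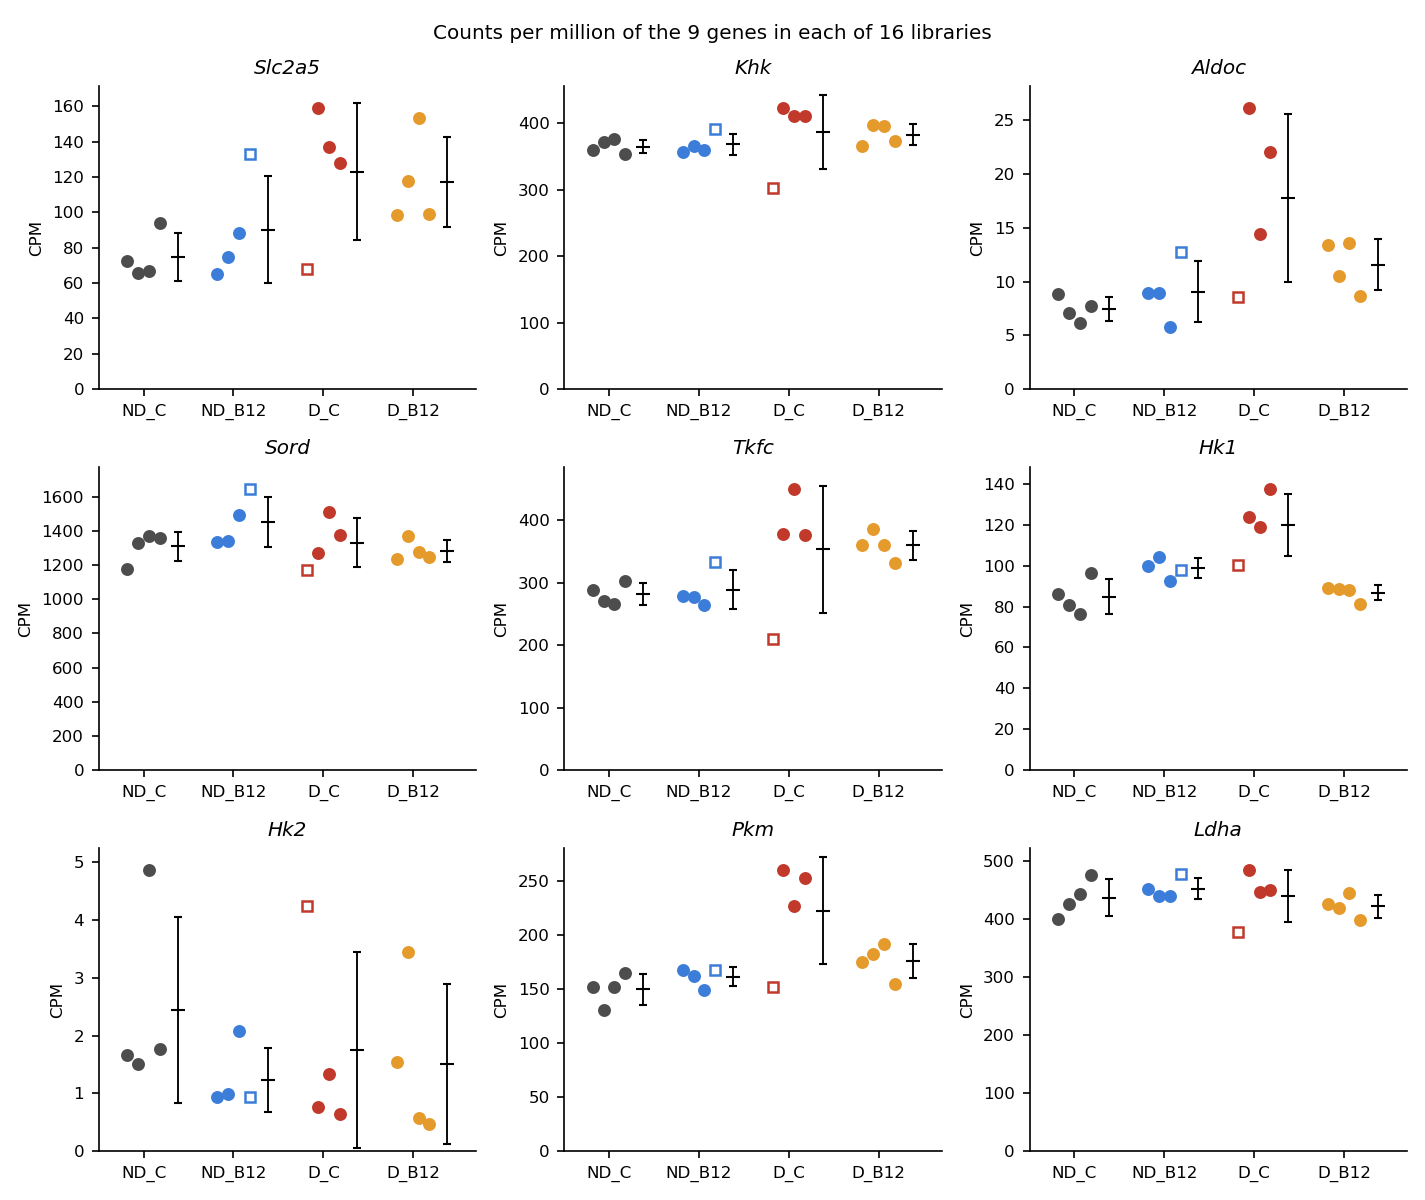
CPM (vertical axes from 0) of the 9 genes in each of the 16 libraries, by labelled group. Each point is 1 library in replicate order, open squares are D_C 1 and ND_B12 4, and the bar beside each group is its mean ± SD (n = 4). For Aldoc, Pkm and Slc2a5 the 3 filled D_C points sit above all ND_C points while the open D_C square sits among them, and the Hk1 points of D_B12 lie between 81.2 and 89.2, below every D_C point.

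Without the libraries D_C 1 and ND_B12 4, an alternative chosen after the data were seen, more of the genes passed. The pair was left out because it lay nearest to libraries of the other genotype, so the omission widens the difference between genotypes by construction, and the values without it are a description and not further support. From ND_C to D_C 6 of 9 genes were then higher in edgeR's test, where 8.57% of all genes passed in either direction, and they were Slc2a5, Khk, Tkfc, Aldoc, Hk1 and Pkm. Leaving out D_C 1 alone gave the same 6 genes, where 6.2% of all genes passed. Between D_B12 and ND_B12 1 of 9 then passed, Tkfc, where 2.8% of all genes did. Between D_B12 and D_C 2 of 9 passed, Hk1 and Pkm, both lower in D_B12, where 0.87% of all genes did, and in the interaction 1 of 9 passed, Hk1, where 0.35% did. Averaged over treatments the 6 genes were called too, where 10.2% of all genes were.

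Levels of different genes can be compared only per length. In CPM per kb of annotated exon, averaged over the 16 libraries, Sord was highest at 572 (range 498 to 699), followed by Khk at 209 (169 to 235) and Ldha at 111 (95.8 to 123). Tkfc stood at 69.4 (45.5 to 97.2), Pkm at 35.4 (25.98 to 51.8) and Slc2a5 at 27.3 (17.6 to 42.8). Hk1 stood at 11.4 (8.96 to 16.1), Aldoc at 3.51 (1.76 to 8.00) and Hk2 at 0.21 (0.0569 to 0.589). The ranges of Ldha and Tkfc, of Tkfc and Pkm and of Pkm and Slc2a5 overlapped, and those of the other neighbours in this order did not. Divided by the length of each gene's main transcript instead, Ldha (275) passed Khk (237) and the rest of the order held. Fewer cells of a type and less RNA per cell cannot be told apart in RNA of kidney tissue.

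Slc2a5 encodes GLUT5, the fructose transporter of the apical membrane. It lies on GRCm39 chromosome 4, 150196268 to 150228931, plus strand, and overlaps Gm53001 on the same strand and Gm13093 on the other. The study's methods say that strand was assigned from intron motifs during alignment, and whether the counting was strand-specific is not stated in the sources used here, so unspliced reads of overlapping genes, here and below, may be divided between them. Its level in ND_C was 72.3, 65.6, 66.8 and 94.2 CPM in replicates 1 to 4, and in ND_B12 65.3, 74.7, 88.0 and 133 CPM. In D_C it was 68.2, 159, 137 and 128 CPM, and in D_B12 98.8, 118, 153 and 99.0 CPM. The libraries D_C 2, 3 and 4 and all of D_B12 were above every ND_C library, while D_C 1 was among the ND_C libraries and ND_B12 4 was among the diabetic ones. The log2 fold change from ND_C to D_C was 0.72 ± 0.25 (SE), with an adjusted p-value of 0.128 in edgeR's test. Averaged over treatments the log2 difference between diabetic and non-diabetic libraries was 0.55 ± 0.17 (adjusted p = 0.093 by edgeR). Without D_C 1 and ND_B12 4 these became 0.92 ± 0.16 and 0.77 ± 0.12, and without D_C 1 alone the first was 0.91. In the B12 comparisons the log2 fold changes were 0.27 in non-diabetic and -0.07 in diabetic kidneys, neither with an unadjusted p-value below 0.05.

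Khk encodes ketohexokinase, which phosphorylates fructose and exists in forms A and C made from a pair of mutually exclusive exons. The C form has the higher affinity for fructose and is the form of liver, kidney and intestine, and the A form is found in many tissues. The gene is on chromosome 5, 31078775 to 31101479, plus strand, and Cgref1 overlaps it on the opposite strand. Both exons are shown because the deposited transcript counts separate the forms by them. They lie at chr5:31084032-31084166 and chr5:31084366-31084500 of GRCm39, each has 135 bases, and 73 bases (54.1%) are identical between them. Capitals mark the 62 positions at which the pair differs.
Khk-205, upstream exon: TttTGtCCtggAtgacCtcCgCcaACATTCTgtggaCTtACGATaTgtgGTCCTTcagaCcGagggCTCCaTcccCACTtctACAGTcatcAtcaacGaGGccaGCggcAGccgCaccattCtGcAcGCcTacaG
Khk-204, downstream exon: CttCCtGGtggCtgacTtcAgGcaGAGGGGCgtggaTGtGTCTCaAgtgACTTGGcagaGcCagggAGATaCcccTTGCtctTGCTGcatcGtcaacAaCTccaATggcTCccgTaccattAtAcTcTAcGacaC

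Transcript Khk-204, with the downstream exon, held 76.2% of the length-scaled Khk counts on average (74.6% to 78.6% over the libraries). Transcript Khk-205, with the upstream exon, held 18.6% (16.5% to 20.04%). Non-diabetic kidneys had a share of 18.8% ± 0.667 (SD, n = 4) untreated and 18.4% ± 0.789 with B12, and diabetic kidneys had 18.7% ± 1.17 and 18.3% ± 1.31. The mean shares of both transcripts therefore moved by less than 1 percentage point between any groups compared, with exact permutation p-values from 0.371 to 0.943. Khk-205 is an incomplete model of 789 bases beside 1583 for Khk-204, and in counts not divided by length its share was 10.3%.

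The whole gene was nearly level across groups. Khk stood at 359, 371, 376 and 353 CPM in ND_C and at 356, 366, 359 and 391 CPM in ND_B12. It stood at 303, 422, 411 and 411 CPM in D_C and at 366, 397, 396 and 373 CPM in D_B12. D_C 1 was the lowest of all 16 libraries and D_C 2, 3 and 4 were the highest. Over the 4 pairwise comparisons its log2 fold changes ran from -0.01 to 0.08, none with an unadjusted p-value below 0.05. Without D_C 1 and ND_B12 4 the log2 fold change from ND_C to D_C was 0.18 ± 0.05.

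Tkfc encodes triokinase, the enzyme after aldolase in the fructose route. Its place is chromosome 19, 10565155 to 10583018, minus strand, and Cyb561a3 and Ddb1 overlap it on the other strand. Its level was 288, 269.7, 266 and 303 CPM in ND_C and 279, 278, 264 and 334 CPM in ND_B12. It was 210.3, 378, 449 and 376 CPM in D_C and 361, 386, 359.9 and 331 CPM in D_B12. All diabetic libraries except D_C 1, which was the lowest of the 16, lay above every ND_C library, and ND_B12 4 lay just above the lowest D_B12 library. The log2 difference of diabetic from non-diabetic libraries, averaged over treatments, was 0.32 ± 0.11 (adjusted p = 0.12 by edgeR). Without D_C 1 and ND_B12 4 it was 0.45 ± 0.05, with 0.51 ± 0.07 for D_C against ND_C and 0.40 ± 0.07 for the B12-treated pair of groups. The 2 main Tkfc transcripts split the gene unevenly from library to library, Tkfc-206 holding 10.5% to 75.0% and Tkfc-205 4.88% to 72.5%, with exact permutation p-values from 0.2 to 0.971 between groups.

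Sord encodes sorbitol dehydrogenase, the step of the polyol pathway that yields fructose. Its place is chromosome 2, 122065230 to 122095821, plus strand. It was the most abundant of the 9 genes and varied little, with 1180.5, 1331, 1369 and 1359 CPM in ND_C and 1338, 1340.3, 1495 and 1644 CPM in ND_B12. In D_C it stood at 1172, 1271, 1510.0 and 1378 CPM and in D_B12 at 1237, 1374, 1278 and 1246 CPM. The groups overlapped in every comparison. The pairwise log2 fold changes ran from -0.18 (95% interval -0.37 to 0.01) for diabetes under B12 to 0.15 (-0.03 to 0.34) for B12 in non-diabetic kidneys. Of all 50-base stretches of the Sord transcript, 31.3% occur also in the transcript of Gm6652, whose level followed that of Sord with r = 0.993 over the libraries, so reads may be divided between the pair.

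Aldoc encodes aldolase C, an isoform best known from brain, while aldolase B serves the fructose route of the proximal tubule. The gene is on chromosome 11, 78213619 to 78218889, plus strand, and overlaps no annotated gene. It was low in every library. Its level was 8.81, 7.03, 6.12 and 7.70 CPM in ND_C and 8.92, 8.89, 5.73 and 12.7 CPM in ND_B12. It was 8.58, 26.1, 14.4 and 22.0 CPM in D_C and 13.4, 10.5, 13.6 and 8.67 CPM in D_B12. D_C 2, 3 and 4 were the highest libraries of all, D_C 1 lay within ND_C, and 3 of 4 D_B12 libraries lay above every ND_C library. The log2 fold change from ND_C to D_C was 1.26 ± 0.29 (adjusted p = 0.0436 by edgeR), and averaged over treatments the diabetic libraries were higher by 0.80 ± 0.20 on the log2 scale (adjusted p = 0.0431). Without D_C 1 and ND_B12 4 these were 1.49 ± 0.21 and 1.02 ± 0.15. From D_C to D_B12 the log2 fold change was -0.62 ± 0.28 and the interaction was -0.91 ± 0.40, with adjusted p-values of 0.349 and 0.278, and the sign of the first rests on the labels that the table of group means contradicts.

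Hk1 encodes hexokinase 1, the hexokinase of most tissues. It lies on chromosome 10, 62104621 to 62215687, minus strand, and Tacr2 and Hk1os overlap it on the other strand. Its level was 86.1, 80.6, 76.4 and 96.5 CPM in ND_C and 100.1, 104, 92.7 and 98.0 CPM in ND_B12. It was 101, 124, 119 and 137 CPM in D_C and 89.2, 88.8, 87.9 and 81.2 CPM in D_B12. Every D_C library, D_C 1 included, lay above every ND_C library and every D_B12 library, and every D_B12 library lay below every ND_B12 library. Of the 9 genes, 1, Hk1, had groups that did not overlap between ND_C and D_C, where 9.45% of all genes did so, between ND_B12 and D_B12 (11.8%) and between D_C and D_B12 (6.6%). Between ND_C and ND_B12 0 of 9 had such groups (4.85%).

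The log2 fold change of Hk1 from ND_C to D_C was 0.50 ± 0.09 (adjusted p = 0.0246 by edgeR). From D_C to D_B12 it was -0.47 ± 0.09 (adjusted p = 0.0742), and it was -0.19 ± 0.09 from ND_B12 to D_B12 (adjusted p = 0.281) and 0.22 ± 0.09 from ND_C to ND_B12 (adjusted p = 0.61). By the labels the sign of the diabetes difference was thus opposite with and without B12. The difference under B12 was called in 0 of 24 alternatives, and these signs rest on labels that the table of group means contradicts. The interaction, which tests whether the diabetes difference changed with B12, was -0.69 ± 0.12 with an adjusted p-value of 0.0554 by edgeR. The adjusted p-values of its 23 alternatives ran from 0.000145 to 0.12, with 8 of them below 0.05. The 8 include the fit without D_C 1 and ND_B12 4 (0.0393 by edgeR), which was chosen after the data were seen and is not further support. With the date as a covariate the interaction called 1 of 9 genes, Hk1, where 2.96% of all genes were called, and from D_C to D_B12 0 of 9 were called, where 0.803% of all genes were. Without D_C 1 and ND_B12 4 the change from D_C to D_B12 was -0.54 ± 0.08 and the interaction -0.76 ± 0.11. Averaged over treatments the diabetic libraries were higher by 0.16 ± 0.06 (adjusted p = 0.166).

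Hk2 encodes hexokinase 2, the insulin-responsive hexokinase of muscle and fat. The gene is on chromosome 6, 82699740 to 82751469, minus strand, with Gm17034 on the other strand. It was barely present, with 31 to 400 counts per library. Its level was 1.66, 1.503, 4.86 and 1.77 CPM in ND_C and 0.929, 0.986, 2.07 and 0.939 CPM in ND_B12. It was 4.24, 0.765, 1.34 and 0.643 CPM in D_C and 1.55, 3.45, 0.578 and 0.469 CPM in D_B12. The 4 highest libraries, ND_C 3, D_C 1, D_B12 2 and ND_B12 3, belonged to 4 different groups, and no comparison had an unadjusted p-value below 0.05. Those same libraries had the highest summed level of the adipocyte markers Adipoq, Plin1, Cidec and Lep, at 52.8, 43.7, 52.5 and 19.7 CPM, where the remaining libraries had 0.137 to 14.2 CPM. Across the 16 libraries r between log2 Hk2 and log2 adipocyte markers was 0.849, a description over libraries that share groups and dissection. The part of adipose tissue in the Hk2 values was not tested. The skeletal muscle markers Acta1, Ckm, Myh4 and Tnnt3 each had fewer than 100 counts over all libraries.

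Pkm encodes the muscle-type pyruvate kinase, the last step of glycolysis, whose forms M1 and M2 come from a pair of mutually exclusive exons. It lies on chromosome 9, 59563364 to 59586663, plus strand, and 1 annotated gene overlaps it on the same strand and 5 on the other. The exons are shown because the forms differ in regulation, M2 being the allosterically controlled form of proliferating and many epithelial cells. The upstream exon (M1) lies at chr9:59582312-59582478 and the downstream exon (M2) at chr9:59582851-59583017 of GRCm39. Each has 167 bases, 103 of them (61.7%) identical, and capitals mark the 64 positions at which they differ.
Pkm-202, upstream exon: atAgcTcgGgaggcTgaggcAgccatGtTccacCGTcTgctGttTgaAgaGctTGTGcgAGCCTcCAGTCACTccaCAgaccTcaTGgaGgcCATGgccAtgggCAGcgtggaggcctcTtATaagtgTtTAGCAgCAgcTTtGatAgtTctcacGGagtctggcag
Pkm-201, downstream exon: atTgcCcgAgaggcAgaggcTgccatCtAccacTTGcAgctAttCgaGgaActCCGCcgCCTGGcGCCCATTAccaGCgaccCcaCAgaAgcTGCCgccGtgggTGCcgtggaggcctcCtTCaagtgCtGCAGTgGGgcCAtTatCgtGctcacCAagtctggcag

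Transcript Pkm-201, with the downstream exon, held 81.7% of the length-scaled Pkm counts (76.0% to 85.6% over the libraries), and Pkm-202, with the upstream exon, 14.9% (12.1% to 20.1%). Untreated kidneys had a Pkm-202 share of 14.2% ± 2.49 without and 14.1% ± 1.92 with diabetes, and B12-treated kidneys had 15.1% ± 1.98 and 16.3% ± 2.81 (SD, n = 4). The largest of the 4 differences in Pkm-201 was -3.25 percentage points from D_C to D_B12, with an exact permutation p-value of 0.0571 and 0.8 after adjustment. With 4 against 4 libraries the test cannot give a p-value below 0.0286, so after adjustment over 56 tests a single share could not pass whatever its difference.

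Pkm stood at 152, 130.3, 152 and 165 CPM in ND_C and at 168, 162, 149 and 168 CPM in ND_B12. It stood at 152, 260.0, 227 and 253 CPM in D_C and at 176, 183, 192 and 155 CPM in D_B12. D_C 2, 3 and 4 were above the other 13 libraries, and D_C 1 was within ND_C. The log2 fold change from ND_C to D_C was 0.57 ± 0.13 (adjusted p = 0.0429 by edgeR). From D_C to D_B12 it was -0.34 ± 0.13 (adjusted p = 0.26), the interaction was -0.45 ± 0.18 (adjusted p = 0.24) and the average over treatments was 0.35 ± 0.09 (adjusted p = 0.0503). Without D_C 1 and ND_B12 4 the first was 0.72 ± 0.08, the second -0.48 ± 0.08 and the last 0.43 ± 0.06. Of the 50-base stretches of Pkm-201, 59.3% occur in transcripts of 10 other genes, Gm69525 and Gm6560 with most, so that some Pkm reads may be counted elsewhere.

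Of the other genes, Slc2a5, Aldoc, Hk1 and Hk2 each had 1 main transcript, with a mean share of 96.6%, 90.5%, 96.0% and 97.2%, and Sord had 1 transcript above the minimum share of 10%.

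**Figure D2:**
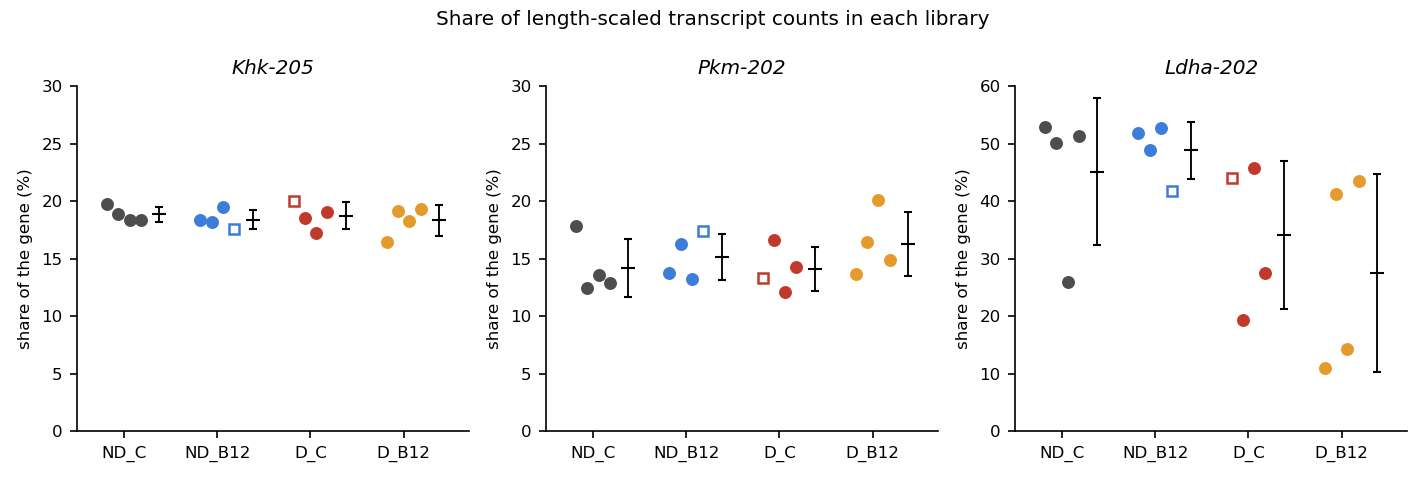
Share of length-scaled transcript counts, in percent of the gene (vertical axes from 0), held by Khk-205, Pkm-202 and Ldha-202 in each library by labelled group, with mean ± SD (n = 4) beside each group and open squares for D_C 1 and ND_B12 4. Khk-205 stays between 16.5% and 20.04% in all groups, whereas Ldha-202 spreads from 10.9% to 52.9%.

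Ldha encodes the A subunit of lactate dehydrogenase, which turns pyruvate into lactate. It lies on chromosome 7, 46490899 to 46505061, plus strand, with Gm39011 and Gm73513 on the other strand. Its level was 399.7, 426, 443 and 476 CPM in ND_C and 451, 439, 439 and 478 CPM in ND_B12. It was 378, 483, 446 and 450.1 CPM in D_C and 426, 418, 445 and 398 CPM in D_B12. The groups overlapped in all comparisons. The log2 fold change from ND_C to D_C was 0.01 with a 95% interval from -0.15 to 0.17, an interval that ends below the 0.57 of Pkm, and the others lay between -0.10 and 0.05. Its estimated transcript shares varied widely between libraries, Ldha-202 holding 10.9% to 52.9% of the gene and Ldha-214 8.62% to 50.01%. The smallest of the 56 transcript p-values, 0.0286 for Ldha-214 between ND_C (33.7%) and ND_B12 (42.1%), is the smallest that 4 against 4 libraries can give and was 0.8 after adjustment, so that 0 of the 56 passed, a count that this limit largely fixes. Of the 50-base stretches of Ldha-202, 46.3% occur in transcripts of 15 other genes.

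**Figure D3:**
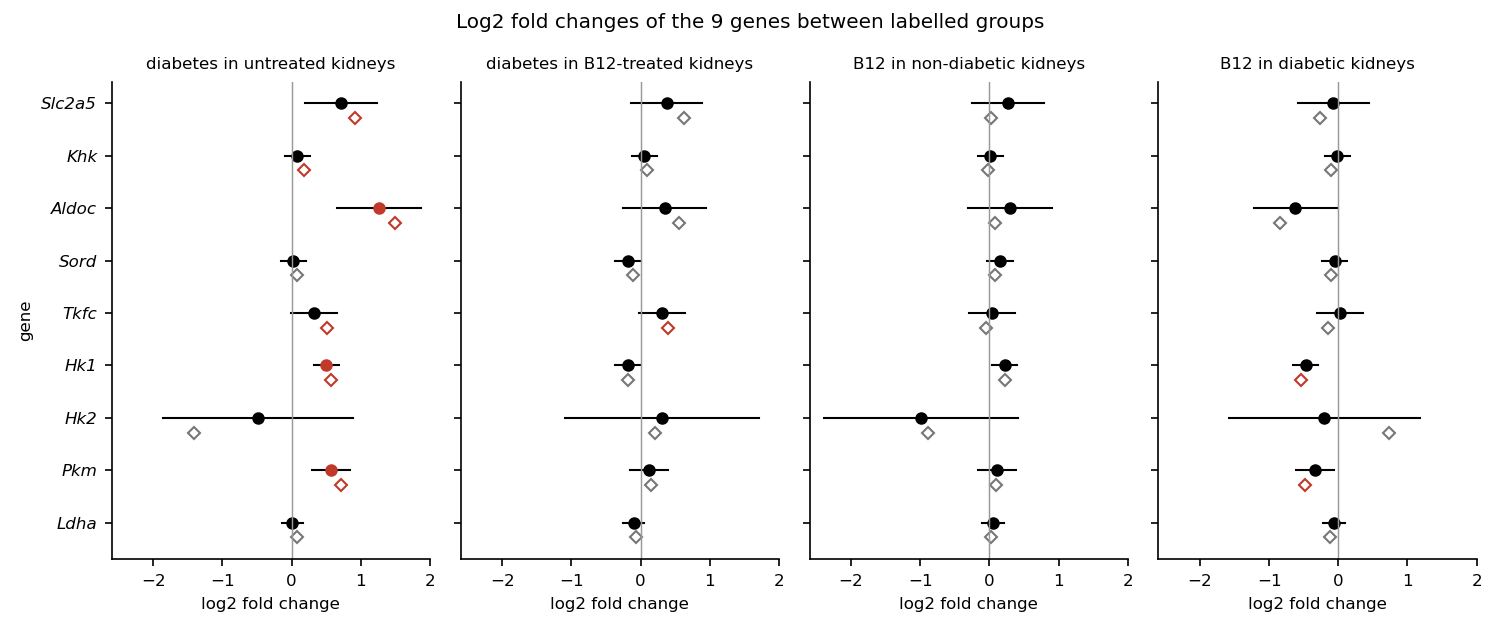
Log2 fold changes (horizontal axes) of the 9 genes for the 4 comparisons between labelled groups, with 95% intervals from edgeR's test on all 16 libraries. Red circles have an adjusted p-value below 0.05, and open diamonds give the fold change without D_C 1 and ND_B12 4, red where the adjusted p-value is below 0.05. Only Aldoc, Hk1 and Pkm are red circles, all for diabetes in untreated kidneys, and Hk1 lies right of 0 there and left of 0 for B12 in diabetic kidneys.

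The 3 calls for diabetes in untreated kidneys were close to the threshold. Hk1 lost its call without ND_C 2 (adjusted p = 0.0971), ND_C 3 (0.0769), D_C 2 (0.0505) or D_C 4 (0.0739). Pkm lost its call without ND_C 1 (0.071), ND_C 2 (0.129), ND_C 3 (0.106), ND_B12 2 (0.0608), D_C 2 (0.09), D_C 3 (0.0844), D_C 4 (0.106) or D_B12 2 (0.0554). Aldoc lost its call without ND_C 1 (0.0687), ND_C 2 (0.121), ND_C 3 (0.122), ND_C 4 (0.0599), ND_B12 2 (0.0618), D_C 2 (0.0981), D_C 3 (0.0719), D_C 4 (0.106) or D_B12 2 (0.0554). Without D_C 1 the adjusted p-values were 0.00316, 0.00148 and 0.00697. Over all genes, untreated diabetes had 423 calls by edgeR with every library. No gene kept a call without ND_C 2 or D_C 4, 2 genes had one without ND_C 3 and 46 without D_C 2. Without ND_C 1 or 4, ND_B12 2, D_C 3 or D_B12 2 there were 67 to 366 calls. Averaged over treatments Aldoc kept its call without ND_B12 4 (0.0192), D_C 1 (0.00577) or D_B12 4 (0.0415), and without any other library the adjusted p-value was 0.0514 to 0.0878. DESeq2 gave these 3 genes adjusted p-values from 2.82e-05 to 0.00404. With the date in the library name as a covariate 0 of the 9 were called there, where 0.00787% of all genes were. The log2 fold changes were then 1.29 ± 0.41 for Aldoc, 0.42 ± 0.12 for Hk1 and 0.46 ± 0.18 for Pkm, with standard errors larger than those without the date.

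Markers of other cell types moved with these genes. The principal cell markers Aqp2, Aqp3, Avpr2, Scnn1g and Hsd11b2 summed to 241 to 309 CPM in ND_C and 329 to 576 CPM in D_C, and under B12 to 268 to 405 CPM in ND_B12 and 271 to 460.1 CPM in D_B12. In D_C 1 the sum was 329 CPM. Of the 5 markers 2, Aqp2 and Aqp3, were called higher in D_C than in ND_C, where 1.66% of all genes were called. Mean Aqp2 went from 74.1 to 239 CPM and mean Aqp3 from 71.1 to 108 CPM, which made up most of the difference in the sum. Hsd11b2 stood at 96.1 and 105 CPM, Scnn1g at 25.8 and 29.1 and Avpr2 at 4.32 and 3.76, with adjusted p-values from 0.358 to 0.861. The endothelial markers Pecam1, Cdh5, Kdr and Emcn summed to 192 to 216 CPM in ND_C and 239 to 285 CPM in D_C, with 0 of 4 called by edgeR and 4 of 4 below an unadjusted p-value of 0.05, where 18.6% of all genes were. The 6 markers of the S1 and S2 proximal tubule summed to 12069.9 to 13015 CPM in ND_C and 10616 to 13393 CPM in D_C, with 0 of 6 called and 1 of 6 below an unadjusted p-value of 0.05, and every one of the 6 had at least 228 CPM in every library. Across the 16 libraries r between the log2 principal cell sum and log2 Aldoc was 0.923, with Pkm 0.885 and with Hk1 0.827. The thick ascending limb markers Slc12a1, Umod, Cldn16 and Ptger3 summed to 2877 to 3914 CPM in D_C and 2156 to 2519 CPM in D_B12. These sums did not overlap, and 6.6% of all single genes had no overlap between the same groups. Of these 4 markers 0 were called by edgeR, and 3 had an unadjusted p-value below 0.05, where 13.6% of all genes did. The median log2 fold change of the 4 was -0.45 with an interaction of -0.49. Mean Umod went from 2045 to 1488 CPM and mean Slc12a1 from 1147 to 770 CPM, which made up most of the difference in the sum. Ptger3 went from 75.6 to 55.8 CPM, whereas Cldn16 stood at 4.83 and 4.97. The part of the principal, endothelial and thick ascending limb cells in the Aldoc, Pkm and Hk1 differences was not tested.

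**Figure D4:**
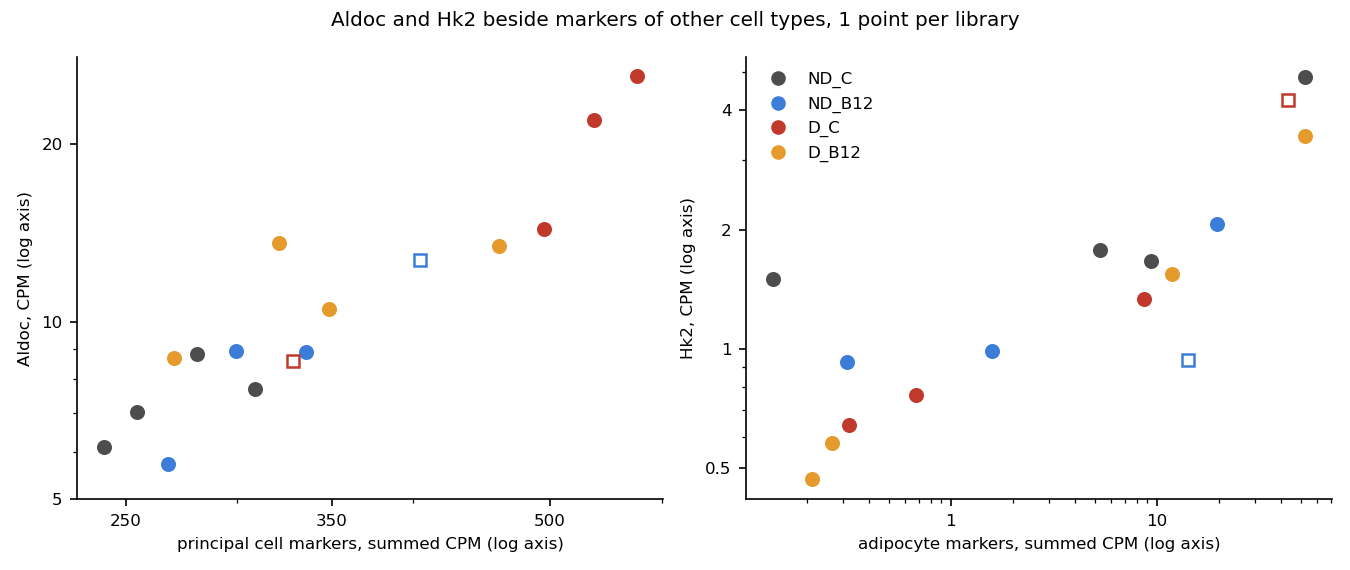
Left, Aldoc CPM against the summed CPM of 5 principal cell markers. Right, Hk2 CPM against the summed CPM of 4 adipocyte markers. Axes are logarithmic, each point is 1 library coloured by labelled group, and open squares are D_C 1 and ND_B12 4. D_C 2, 3 and 4 are highest on both axes at left (markers 495 to 576 CPM), and the libraries above 3 CPM of Hk2 at right come from ND_C, D_C and D_B12.

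The genes whose log2 CPM ran closest to each of the 9, over the same 16 libraries, are given as a description. For Slc2a5 they were Pgrmc1 (r = 0.97), Hacl1 (0.965) and Eno1b (0.965), and for Khk Get4 (0.945), Vapa (0.932) and Mdh1 (0.914). For Tkfc they were Car15 (0.943), Eif1ad (0.939) and Rogdi (0.933). Aldoc ran with Tinagl1 (0.954), the water channel Aqp2 (0.951) and Cd34 (0.949), and Hk1 with St14 (0.944), Epcam (0.942) and Sh3bp4 (0.923). Hk2 ran with the brown fat gene Ucp1 (0.946), Kcnk3 (0.942) and Prkar2b (0.941). Pkm ran with Gm6560 (0.972), which shares sequence with it, Capn2 (0.952) and the phosphofructokinase gene Pfkl (0.944). Sord ran with Gm6652 (0.993), Ccdc51 (0.883) and Hgd (0.877), and Ldha with Lclat1 (0.897), Cyb5b (0.889) and Prdx1 (0.888). Among the 9 themselves the highest values were 0.914 for Aldoc and Pkm, 0.857 for Khk and Tkfc, 0.838 for Slc2a5 and Tkfc and 0.814 for Hk1 and Pkm. All these values come from the same 16 libraries and include the differences between groups.

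Other genes of the same routes were read from 3 lists of 18, 25 and 22 genes. Of 16 tested polyol and fructose genes, 0 were called by edgeR for diabetes in untreated kidneys, 8 of them with an unadjusted p-value below 0.05, where 18.6% of all genes lay below it. Their median log2 fold change was 0.09 with 10 of 16 positive, and under B12 it was -0.02 with 8 of 16 positive. Under B12 0 were called and 3 lay below an unadjusted p-value of 0.05, where 0.823% and 17.0% of all genes did. Averaged over treatments 1 was called, Akr1b10, an aldo-keto reductase, which fell by 0.23 ± 0.05 on the log2 scale (adjusted p = 0.0301), where 3.02% of all genes were called. Untreated, its mean was 22.4 ± 0.932 CPM (SD, n = 4) in ND_C against 18.6 ± 1.82 in D_C, and with B12 it was 20.8 ± 1.65 in ND_B12 against 18.1 ± 0.964 in D_B12. Glyctk, which phosphorylates glycerate from fructose, stood at 207 ± 16.1 CPM in ND_C and 155 ± 17.4 in D_C (log2 fold change -0.42 ± 0.13, adjusted p = 0.108). The sugar transporter gene Slc2a8 had 10.9 ± 0.432 CPM in ND_C against 13.1 ± 0.823 in D_C, and 12.7 ± 1.84 CPM in ND_B12 against 11.0 ± 0.472 in D_B12, with an interaction of -0.47 ± 0.12 (adjusted p = 0.0933).

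Of 24 other tested glycolysis genes, 1 was called for diabetes in untreated kidneys, Pfkl, the liver-type phosphofructokinase of the committed step, where 1.66% of all genes were called, and 18 of 24 had a positive fold change with a median of 0.08. Pfkl rose from 44.5 ± 3.4 CPM in ND_C to 63.3 ± 10.7 in D_C (log2 fold change 0.51 ± 0.11, adjusted p = 0.038 by edgeR), beside 49.3 ± 4.16 in ND_B12 and 51.2 ± 5.09 in D_B12. For diabetes under B12 0 of 24 were called and 3 had an unadjusted p-value below 0.05, where 0.823% and 17.0% of all genes did. The median was 0.08 with 15 of 24 positive. The phosphofructokinase gene Pfkp had a log2 fold change of 0.35 ± 0.13 from ND_C to D_C (adjusted p = 0.163), and the low enolase gene Eno2, at 0.766 ± 0.11 CPM in ND_B12 and 1.23 ± 0.278 in D_B12, 0.68 ± 0.19 under B12 (adjusted p = 0.0896).

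Of 21 tested lactate and pyruvate genes, 2 were called for diabetes in untreated kidneys, 1 in each direction, where 1.66% of all genes were called, and 12 of 21 had a positive fold change with a median of 0.04. Under B12 7 of 21 were positive with a median of -0.05. Pdk1, a kinase that shuts off pyruvate dehydrogenase, rose from 36.0 ± 4.89 CPM in ND_C to 56.2 ± 10.7 in D_C (log2 fold change 0.64 ± 0.15, adjusted p = 0.0468). Ldhd, the mitochondrial D-lactate dehydrogenase, fell from 1022 ± 95.2 to 672 ± 118 CPM in untreated and from 899.75 ± 192 to 575 ± 44.9 CPM in B12-treated kidneys. Its log2 fold changes were -0.61 ± 0.14 and -0.64 ± 0.14 (adjusted p = 0.0465 and 0.0482 by edgeR). The latter was the only call of the list under B12, where 0.823% of all genes were called. Averaged over treatments the change of Ldhd was -0.63 ± 0.10 (adjusted p = 0.0116 by edgeR). The malic enzyme gene Me1 fell by 0.23 ± 0.05 on the log2 scale averaged over treatments (adjusted p = 0.0266). The pyruvate dehydrogenase phosphatase gene Pdp1 stood at 8.38 ± 1.6 CPM in D_C and 5.44 ± 0.467 in D_B12 (log2 fold change -0.62 ± 0.13, adjusted p = 0.0783), with an interaction of -0.74 ± 0.18 (adjusted p = 0.0777). For B12 in any comparison 0 genes of the 3 lists were called by edgeR, where 0% of all genes were. At an unadjusted p-value below 0.05 there were 0 to 6 per list and comparison. The highest count was 6 of 21 lactate and pyruvate genes for B12 in diabetic kidneys, where 13.6% of all genes lay below it. The shares of all genes in the other B12 comparisons were 7.62% in non-diabetic kidneys, 16.1% in the interaction and 5.2% averaged over genotypes. Their medians for B12 in non-diabetic kidneys were 0.07, 0.04 and -0.01 in the order of the lists, and for B12 in diabetic kidneys -0.04, -0.01 and -0.06.

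**Figure D5:**
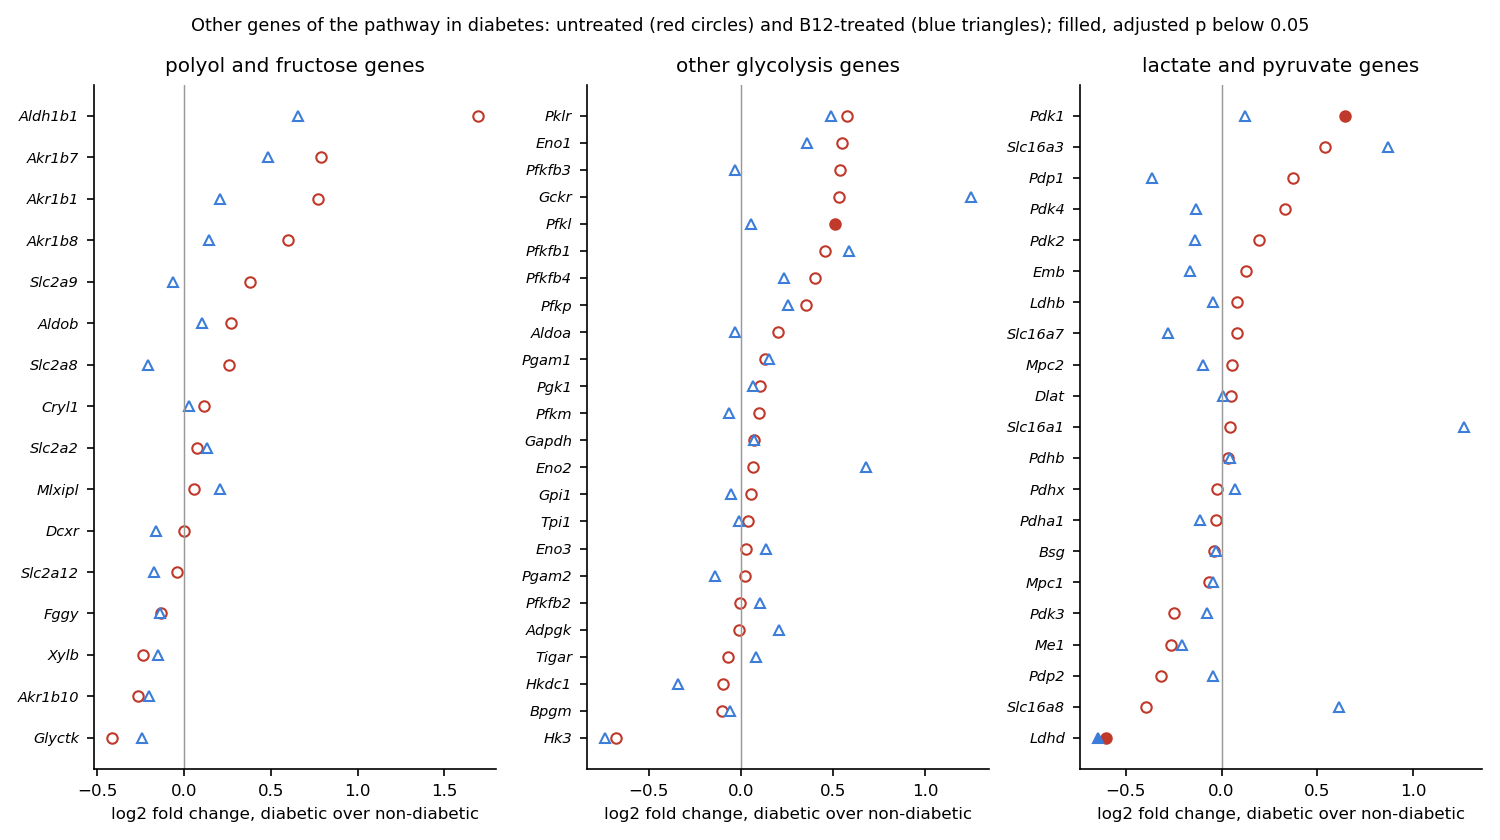
Log2 fold change of diabetic over non-diabetic libraries (horizontal axes) for the 16, 24 and 21 tested genes of the 3 lists, in untreated kidneys (red circles) and B12-treated kidneys (blue triangles), ordered by the untreated value. Filled symbols have an adjusted p-value below 0.05, which are Pfkl, Pdk1 and Ldhd, and Ldhd alone is filled in both and lies left of 0 in both.

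These calls, too, sat near the threshold. Over all genes, diabetes under B12 had 209 calls with every library. It had 0 without ND_B12 2 or D_B12 1, 2 or 3, and 1 without ND_B12 3. Averaged over treatments all genes gave 767 calls, and 235 to 1700 without 1 library. For diabetes in untreated kidneys, Pfkl kept its call without ND_C 4, ND_B12 1, 3 or 4, D_C 1 or any D_B12 library (adjusted p 0.00395 to 0.0497) and lost it without any of the others (0.0531 to 0.119). Pdk1 kept it without ND_C 4, ND_B12 1 or 4, D_C 1 or D_B12 1 or 3 (0.01 to 0.0482) and otherwise lay at 0.0538 to 0.144. Ldhd kept it without ND_B12 1 or 4, D_C 1 or D_B12 1 (0.0146 to 0.0492) and otherwise lay at 0.0507 to 0.14, and under B12 it kept it without ND_B12 4, D_C 1 or D_C 2 (0.0157 to 0.0356) and otherwise lay at 0.0586 to 0.139. Averaged over treatments Ldhd was called without any 1 library (0.00183 to 0.0308). Akr1b10 was called there without ND_C 1 or 4, ND_B12 4, D_C 1 or 3 or D_B12 2 or 4 (0.00673 to 0.0499) and Me1 without ND_C 1 or 4, ND_B12 4, D_C 1, 3 or 4 or D_B12 2 or 4 (0.00887 to 0.0429), and without any of the other libraries they lay at 0.0505 to 0.0696 and 0.0512 to 0.0591.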

How the data were processed

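Kidney RNA of 16 mice was sequenced as paired reads of 50 bases. The authors aligned them to GRCm39 with STAR and the GENCODE vM35 annotation and deposited estimated counts per gene and per transcript from StringTie, which were whole numbers. Strand was assigned from intron motifs in alignment, and strand-specific counting is not stated. Of 57186 genes, 25408 with at least 100 counts were tested in R 4.3.3 with edgeR 4.0.16 (TMM, glmQLFit and glmQLFTest, all 16 libraries with 4 group means and 12 residual degrees of freedom, two-sided, Benjamini-Hochberg over all genes at 0.05). The common biological coefficient of variation was 0.201, so the spread between mice limits precision more than counting does. No 2 libraries were duplicates (chi-square per gene 12.5 to 130). Replicates are separate mice by the labels, and 0 columns were left without a library.

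CPM uses TMM-scaled totals, and likeness and log2 CPM use a prior count of 2, or 0.5 CPM added for marker sums. Transcript shares are counts divided by length, for transcripts with at least 10% of their gene, tested by exact permutation (two-sided, adjusted over 56 tests). Positions and overlaps come from GENCODE vM39 and exon sequences from GRCm39. Full statistics are given for the 9 genes where the unadjusted p-value was below 0.05. Of the 3 lists, genes with an adjusted p-value below 0.05 anywhere and the 3 smallest p-values were named. Symbols that occurred more than once were read from the most abundant row. Genes, lists and tests were chosen with earlier results of these data known. Alternatives were DESeq2 1.42.0, upper-quartile normalization, 2 other filters, the date, a replicate block, the compared groups alone and each library left out.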

Additional observations from a re-analysis of the deposited data

Results flagged for a closer look

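Within groups of 4 libraries, 4 values among the 9 genes stood far from the other 3 of their group, with a gap to the nearest that passed Dixon's critical value, which chance gives in about 1 of 20 groups. Khk in D_C was lowest at 303 CPM, in D_C 1, which was nearest to ND_C 4 over all genes. Hk1 in D_B12 was lowest at 81.2 CPM, in D_B12 4. Hk2 was highest in ND_C at 4.86 CPM, in ND_C 3, and highest in ND_B12 at 2.07 CPM, in ND_B12 3, and in both groups that library also had the highest adipocyte marker sum (52.8 and 19.7 CPM).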

How the results depend on the processing

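Of the 9 genes, 3 were called for diabetes in untreated kidneys. The count was 1 with no filter beyond 1 count, 0 with the date as a covariate, 1 with the replicate block, 0 with the compared groups alone, 6 without both D_C 1 and ND_B12 4, and 0 to 6 without 1 library. For diabetes averaged over treatments the count of 1 became 3 with DESeq2, 2 with upper-quartile normalization or filterByExpr, 0 with no filter, the date or the replicate block, 6 without both libraries, and 0 to 6 without 1 library. For diabetes under B12 the count of 0 became 1 without both libraries, and 0 to 1 without 1 library. For B12 in diabetic kidneys the count of 0 became 1 with DESeq2 and 2 without both libraries, and 0 to 2 without 1 library. In the interaction the count of 0 became 1 with DESeq2, the date or the replicate block and 1 without both libraries, and 0 to 2 without 1 library. The counts of 0 for B12 in non-diabetic kidneys and B12 averaged over genotypes did not move under any alternative run. Of 400 repeats for single genes, 321 kept direction and side of the threshold, 47 lost the call, 31 gained it and 1 changed sign, which was Tkfc averaged over treatments, at -0.00536 with the date as a covariate. The repeats include the fit without both libraries, which was chosen after the data were seen. Same-numbered libraries of different groups had correlations of their deviations between -0.183 and 0.168, and 5 of 16 libraries correlated best with their own number. No pairing of mice by number was seen, and this check, which uses the labelled groups, cannot exclude one. With the replicate block Hk1 kept its call for untreated diabetes (adjusted p = 0.0335) and Aldoc and Pkm did not (0.0603 and 0.0594). Over all genes, untreated diabetes gave 423 calls, 1603 with DESeq2, 269 with the block, 2 with the date and 2127 without both libraries. It gave 63 of 40826 with no filter beyond 1 count and 242 of 22948 with the compared groups alone. The average over treatments gave 767 calls, 1832 with DESeq2, 690 with upper-quartile normalization and 794 of 25126 with filterByExpr. It gave 427 of 40826 with no filter, 0 with the date, 478 with the block and 2531 without both libraries. Diabetes under B12 gave 209 calls and 695 without both libraries. Without 1 library untreated diabetes gave 0 to 1552 calls, diabetes under B12 gave 0 to 441 and the average over treatments 235 to 1700. The interaction gave 0 calls over all genes, 923 with DESeq2, 753 with the date, 147 with the block and 87 without both libraries. B12 in diabetic kidneys gave 0, 681 with DESeq2, 0.803% of all genes with the date, 0 with the block and 216 without both libraries. Without 1 library the interaction gave 0 to 266 calls and B12 in diabetic kidneys 0 to 69. The cause of these differences was not tested. Depth bears most on Hk2, with 31 counts in its lowest library.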
